A study of Mus musculus with 8 samples.

Results

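Mitochondrial fusion and fission genes were followed in RNA sequencing of heart tissue from WT and TAZG197V mice. The set is a list of 10 genes chosen by name: Opa1, Mfn1, Mfn2, Dnm1l, Fis1, Mff, Mief1, Mief2, Mtfp1 and Mtfr1. All 10 were found by Ensembl identifier among the 55471 genes of the count tables, and all 10 were among the 15084 genes with enough counts to be tested.

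The study asked how the heart transcriptome differs between the genotypes, with 4 WT and 4 TAZG197V libraries. TAZG197V mice carry a missense knock-in in Tafazzin (Taz), the X-linked acyltransferase that matures cardiolipin, and the allele corresponds to a Barth syndrome patient mutation. It was introduced with Cas9 into C57BL/6N zygotes and the founders were crossed to C57BL/6J, so the background is a mix of both substrains. The labels and methods speak of homozygous offspring, whereas the study elsewhere describes the mutants used as hemizygous males, so the zygosity of the mutants rests on that description. The age stated for the mice sequenced is 14 weeks. WT controls carried no edited allele, and neither genotype was treated. The mutation is present in every cell of the body, and RNA was taken from a small piece of heart, so these are bulk measurements in which fewer cells of a type and less RNA per cell cannot be told apart. The labels number the libraries 1 to 4 within a genotype without naming animals, so p-values measure the spread between libraries.

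Mitochondria form a network that is reshaped by membrane fusion and division. Mitofusins on facing outer membranes tether and fuse neighbouring organelles, and OPA1, a dynamin-like GTPase held by cardiolipin-rich inner membrane, then joins the inner membranes and keeps cristae shaped. Division is carried out by the cytosolic GTPase DRP1, which adaptor proteins recruit to the outer membrane, where it assembles into a constricting ring. Cardiomyocytes hold densely packed mitochondria between their myofibrils and depend on both processes for organelle quality.

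Mtfp1 and Opa1 were the members that changed, and the 250 bases before their start sites are shown for that reason, from RefSeq on GRCm38.p6. Both are written 5′ to 3′ on the strand of the gene. For Mtfp1 the RefSeq start site lies inside the gene span given below (to 4095445), so the last bases of its window fall within that span. Capitals mark a match to a motif in the search described with the promoter results.

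Mtfp1 (chr11:4095432-4095681, minus strand): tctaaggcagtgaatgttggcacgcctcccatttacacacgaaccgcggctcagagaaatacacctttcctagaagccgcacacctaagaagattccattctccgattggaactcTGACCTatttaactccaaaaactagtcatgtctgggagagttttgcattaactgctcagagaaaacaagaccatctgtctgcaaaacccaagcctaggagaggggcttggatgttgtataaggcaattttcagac
Opa1 (chr16:29579084-29579333, plus strand): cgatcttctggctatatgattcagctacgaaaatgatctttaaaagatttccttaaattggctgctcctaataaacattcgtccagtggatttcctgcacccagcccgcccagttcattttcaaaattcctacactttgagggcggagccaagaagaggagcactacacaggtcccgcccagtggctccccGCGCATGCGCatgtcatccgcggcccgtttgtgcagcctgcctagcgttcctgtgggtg

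The libraries held 23055689 to 36301031 counts over genes, of which 21.6% to 24.6% lay in genes of the mitochondrial genome. Taz mRNA, the product of the edited gene, was present in all 8 libraries at 63.8, 58.7, 61.9 and 59.3 CPM (counts scaled to library size) in WT and 48, 50.4, 46.3 and 44.3 CPM in TAZG197V hearts. Its log2 fold change was -0.37 (SE 0.0551, adjusted p = 0.00124, edgeR), and a substitution need not lower the mRNA, so this tells the genotypes apart without reading the allele. Both libraries numbered 4 stood apart from the other 6 on the second principal component. They held 107.7 CPM (WT 4) and 273.7 CPM (TAZG197V 4) of 6 summed brain genes, against at most 12.2 CPM elsewhere, and WT 4 also held 55072 CPM of 6 red cell genes, against at most 1065 CPM in any other library. WT 2 also stood apart, with 918.7 CPM of 4 summed atrial genes against at most 75.1 CPM in any other library and at most 5.54 CPM in a mutant. Results are therefore also given without these libraries where the value matters.

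Across the members the differences were few, and most of them were small. A gene was called changed where its edgeR adjusted p was under 0.05, its log2 fold change beyond 0.20 either way and its mean scaled count at least 50. By this rule 2 of the 10 members were called, against 33.5% of all genes tested. Both, Mtfp1 and Opa1, were lower in TAZG197V hearts, where 15.1% of all genes were called lower. None was called higher, against 18.5% of all genes; edgeR gave Mff alone an unadjusted p under 0.05 in that direction, and DESeq2 also called 0 members higher. Fitted changes lay below 0 for 7 members and above 0 for 3, with a median of -0.13 on the log2 scale beside -0.01 for all genes tested. The median absolute change was 0.14 for the members and 0.26 for all genes. An unadjusted p under 0.05 was reached by 6 members, beside 48.2% of all genes. In 4 members, Opa1, Mfn2, Mff and Mtfp1, no library of one genotype overlapped the other, as in 33.2% of all genes. These shares do not set the list apart from the table as a whole.

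**Figure D1:**
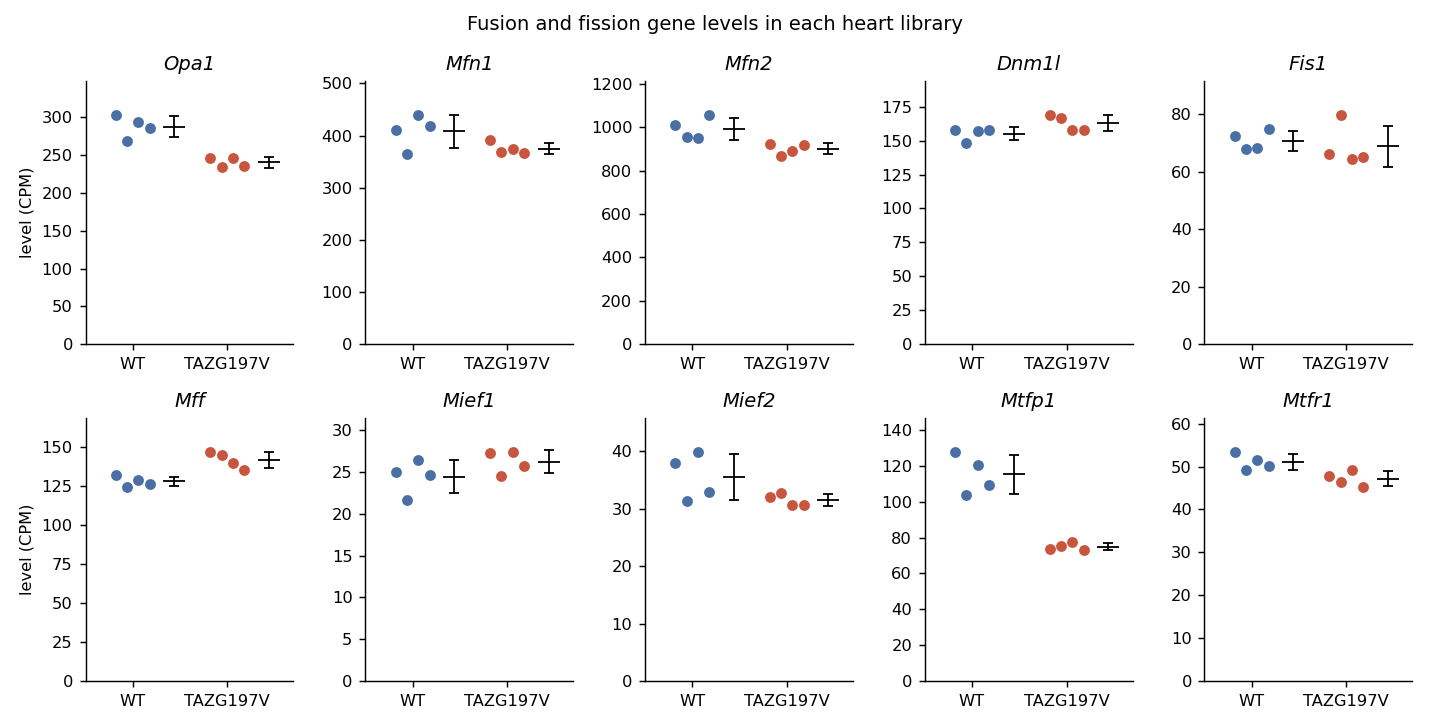
Level of each of the 10 genes in every library, in CPM on an axis from 0 (points, libraries 1 to 4 from left to right, WT blue and TAZG197V red), with the mean and SD of 4 libraries beside them (bars). Mtfp1 in TAZG197V hearts lay at 73 to 77.3 CPM, below all WT libraries at 104.0 CPM or more, while Mfn1, Dnm1l, Fis1, Mief1, Mief2 and Mtfr1 overlapped between the genotypes.

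Levels of different genes can be compared per length, and the order below uses CPM per kilobase of annotated exon. In WT hearts Mfn2 led at 191.0 ± 9.69 (SD, n = 4), and it supplied 43.7% of the 2268 CPM that the 10 genes summed to. Mfn1 followed at 66.7 ± 5.15 and Mtfp1 at 66.4 ± 6.18, whose libraries overlapped and so did not differ in order. Fis1 stood at 41.3 ± 2.00 CPM per kilobase, Opa1 at 36.6 ± 1.80 and Dnm1l at 29.8 ± 0.881, and no library of any of these overlapped its neighbour. Mff at 13.1 ± 0.320, Mief2 at 13.1 ± 1.50 and Mtfr1 at 11.7 ± 0.424 formed a lower group in which Mief2 overlapped both of the others. Mief1 was lowest at 3.02 ± 0.241 CPM per kilobase.

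The order differed in places in TAZG197V hearts. Mtfp1 stood at 43.1 ± 1.10 CPM per kilobase, below every Mfn1 library (59.9 to 63.9) and within the range of Fis1 (37.6 to 46.4). Opa1 at 30.5 ± 0.882 fell into the range of Dnm1l at 31.3 ± 1.10, whereas in WT hearts the lowest Opa1 library (34.2) was above the highest Dnm1l library (30.4). In the lower group Mff (13.9 to 15.0) no longer overlapped Mief2 (11.3 to 12.1). Mfn2 was again highest at 173.3 ± 4.87 and Mief1 lowest at 3.24 ± 0.17 CPM per kilobase. Since one exon length was used for all libraries, a shift between isoforms of different length would also move these values.

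Opa1 (ENSMUSG00000038084, chromosome 16, 29579334 to 29654884, plus strand, GRCm38) encodes the inner-membrane fusion GTPase. WT libraries held 302.6, 269.1, 293.6 and 286.1 CPM of it, and TAZG197V libraries 246.5, 233.7, 246.2 and 235.1 CPM. Every TAZG197V library was thus below every WT library. The means were 287.8 ± 14.2 and 240.4 ± 6.95 CPM (SD, n = 4 each), 16.5% lower in the mutants, and rested on 6409 to 9792 counts per library. The log2 fold change was -0.27 (SE 0.0571, 95% interval -0.40 to -0.14, edgeR adjusted p = 0.00683), and it was -0.25 (adjusted p = 0.0146) without both number 4 libraries. Counts over a whole gene do not separate the splice forms of Opa1, nor the long and short proteins cut from them.

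On the outer membrane, the fusion GTPases moved by less. Mfn1 (ENSMUSG00000027668, chromosome 3, 32529465 to 32579239, plus strand) encodes mitofusin 1, a strong tether of outer membranes. Its WT libraries held 410.7, 364.0, 438.6 and 418.0 CPM and its TAZG197V libraries 390.8, 368.7, 374.0 and 366.2 CPM. WT 2 was below all 4 mutants and the other 3 WT libraries were above them. With a log2 fold change of -0.14 (SE 0.059, 95% interval -0.28 to -0.01) and an edgeR adjusted p of 0.0879, Mfn1 was not called.

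Mfn2 (ENSMUSG00000029020, chromosome 4, 147873599 to 147904704, minus strand) encodes mitofusin 2, which also tethers mitochondria to the endoplasmic or sarcoplasmic reticulum. It stood at 1010, 953.1, 949.3 and 1055 CPM in WT and 924.3, 869.5, 890.2 and 917.3 CPM in TAZG197V hearts. The genotypes did not overlap, but the gap between the nearest libraries was small beside the WT spread (991.8 ± 50.3 against 900.3 ± 25.3 CPM, SD, n = 4 each). Its log2 fold change of -0.15 (SE 0.0636, 95% interval -0.29 to -0.00) had an edgeR adjusted p of 0.1. DESeq2 gave an adjusted p of 0.0411, with a log2 fold change still within 0.20 of 0.

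The balance of the mitofusins was read as the ratio of Mfn1 to Mfn2 within each library, which needs no scaling between libraries. It was 0.406, 0.382, 0.462 and 0.396 in WT and 0.423, 0.424, 0.42 and 0.399 in TAZG197V hearts. The mutant values lay inside the WT range. The log2 difference was 0.02 (SE 0.0631; exact two-sided permutation test, p = 0.771), so a shift of the ratio was not detected. With 4 libraries against 4 the smallest p this test allows is 0.0286, and 3 ratios were tested.

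Division genes coding for DRP1 and its adaptors included no called member. Dnm1l (ENSMUSG00000022789, chromosome 16, 16312230 to 16358959, minus strand) encodes DRP1, the GTPase that constricts and cuts the organelle. It held 158.1, 148.4, 156.8 and 157.6 CPM in WT and 168.6, 166.9, 158.1 and 157.8 CPM in TAZG197V hearts. Only 2 mutant libraries stood clear of the WT range, the other 2 lying at its upper edge. The log2 fold change was 0.06 (SE 0.0516, 95% interval -0.06 to 0.18, edgeR adjusted p = 0.392), so that interval holds no rise as large as the 0.20 of the call rule. Of its exon bases 4.67% lie under an antisense gene, Gm49521. Whether the counting used strand is not given in the sources used here, so those reads are uncertain.

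Mff (ENSMUSG00000026150, chromosome 1, 82724890 to 82752394, plus strand) encodes mitochondrial fission factor, a main DRP1 adaptor. In WT it stood at 131.8, 124.7, 129.1 and 126.4 CPM, and in TAZG197V hearts at 146.8, 144.9, 139.5 and 135.4 CPM. All mutants were above all WT libraries, which makes Mff the only member to separate upward. Its means differed by 10.7%, from 128.0 ± 3.12 to 141.7 ± 5.19 CPM (SD, n = 4 each). The log2 fold change of 0.14 (SE 0.05, 95% interval 0.03 to 0.26, edgeR adjusted p = 0.0553) missed both the adjusted p and the fold of the call rule. With 1 surrogate variable in place of 2 the adjusted p was 0.0404 and the log2 fold change remained under 0.20.

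Fis1 (ENSMUSG00000019054, chromosome 5, 136953275 to 136966234, plus strand) encodes a small outer-membrane protein that can bind DRP1. Its levels were 72.3, 67.8, 68.1 and 74.9 CPM in WT and 66.3, 79.6, 64.5 and 65.1 CPM in TAZG197V hearts. A single mutant library, TAZG197V 2, was above the WT range, and the other 3 mutants lay below the lowest WT library. The log2 fold change was -0.05 (SE 0.081, 95% interval -0.24 to 0.13, edgeR adjusted p = 0.635). It was 0.011 without TAZG197V 4 and -0.001 without WT 4, in fits that also held 1 surrogate variable in place of 2. With 1 surrogate variable and all libraries it was -0.039.

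Mief1 and Mief2 encode MiD51 and MiD49, paralogous outer-membrane receptors that bind DRP1. Mief1 (ENSMUSG00000022412, chromosome 15, 80234018 to 80253371, plus strand) held 25, 21.7, 26.4 and 24.7 CPM in WT and 27.3, 24.5, 27.4 and 25.7 CPM in TAZG197V hearts. The ranges overlapped and the log2 fold change of 0.08 (SE 0.0674, 95% interval -0.08 to 0.23) had an edgeR adjusted p of 0.386. Mief2 (ENSMUSG00000018599, chromosome 11, 60728398 to 60732951, plus strand) held 38, 31.3, 39.9 and 33 CPM in WT and 32.1, 32.7, 30.6 and 30.7 CPM in TAZG197V hearts. Its WT libraries were the more scattered, with WT 2 inside the mutant range. At a log2 fold change of -0.19 (SE 0.0755, 95% interval -0.36 to -0.02, edgeR adjusted p = 0.0799) Mief2 was not called. It was called without WT 2, at -0.24 (adjusted p = 0.0435), in a fit that also held 1 surrogate variable in place of 2. With 1 surrogate variable and all libraries it was -0.17 (adjusted p = 0.136) and not called.

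The fitted changes of these receptors had opposite signs, and their ratio was also examined. It draws on the same libraries, so it is no separate evidence of those changes. Mief1 to Mief2 was 0.659, 0.694, 0.661 and 0.75 in WT and 0.851, 0.749, 0.895 and 0.837 in TAZG197V hearts. In 3 mutants the ratio was above every WT library, and in TAZG197V 2 it was level with the highest, WT 4. The means of 0.691 ± 0.0425 and 0.833 ± 0.0609 did not pass the test (log2 difference 0.27, SE 0.0693, exact two-sided permutation p = 0.0571, Benjamini-Hochberg adjusted over 3 ratios 0.171). Fis1 to Mff, the ratio of the other adaptors, was 0.548, 0.543, 0.527 and 0.592 in WT and 0.451, 0.549, 0.462 and 0.481 in TAZG197V hearts. Here too 3 mutants lay outside the WT range and TAZG197V 2 did not. The log2 difference was -0.19 (SE 0.0727, exact two-sided permutation p = 0.114, adjusted 0.171).

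**Figure D2:**
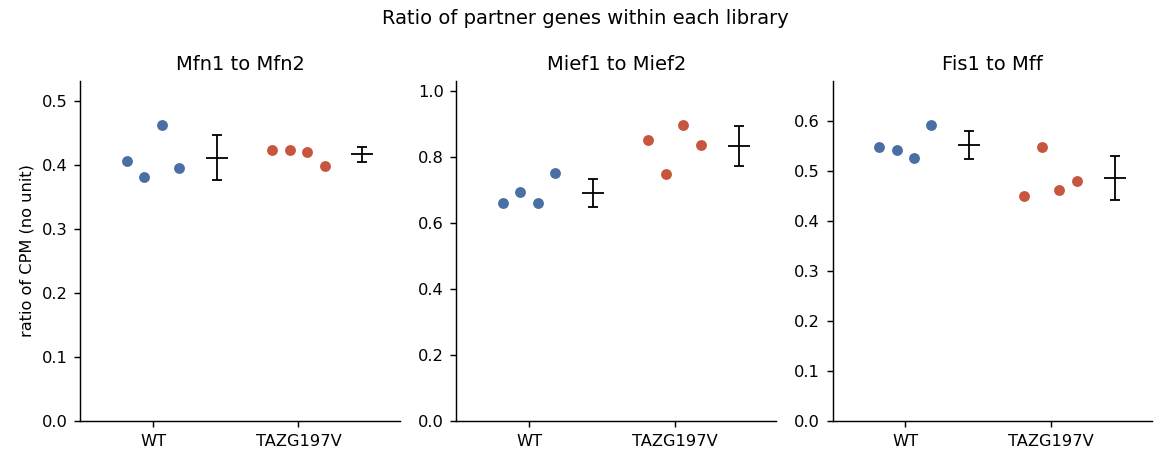
Ratio of CPM between partner genes within each library (points, libraries 1 to 4 from left to right, WT blue and TAZG197V red, axis from 0), with the mean and SD of 4 libraries (bars). Mfn1 to Mfn2 overlapped fully, while Mief1 to Mief2 was higher and Fis1 to Mff lower in 3 of the 4 TAZG197V libraries, with TAZG197V 2 as the exception in both.

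The largest change among the 10 genes was in Mtfp1 (ENSMUSG00000004748, chromosome 11, 4091480 to 4095445, minus strand), which encodes mitochondrial fission process 1, an inner-membrane protein linked to division. WT libraries held 127.8, 104.0, 120.3 and 109.2 CPM, and TAZG197V libraries 73.8, 75.6, 77.3 and 73 CPM. The lowest WT library was well above the highest mutant, and the mutants varied little among themselves. The mean fell from 115.3 ± 10.7 to 74.9 ± 1.91 CPM (SD, n = 4 each), a difference of -35%. The log2 fold change was -0.64 (SE 0.066, 95% interval -0.79 to -0.48, edgeR unadjusted p = 9.19e-06, adjusted p = 0.000224). Of all genes tested, 8.87% had a lower fitted change. Without both number 4 libraries it was -0.63 (adjusted p = 0.000301), and Mtfp1 was the only member past a fold of 1.5.

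Mtfr1 (ENSMUSG00000027601, chromosome 3, 19187327 to 19220817, plus strand) encodes mitochondrial fission regulator 1. It stood at 53.4, 49.1, 51.5 and 50.1 CPM in WT and 47.7, 46.5, 49.3 and 45.2 CPM in TAZG197V hearts. The ranges met at WT 2 and TAZG197V 3. Its log2 fold change of -0.12 (SE 0.0539, 95% interval -0.24 to 0.00, edgeR adjusted p = 0.114) was not called.

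**Figure D3:**
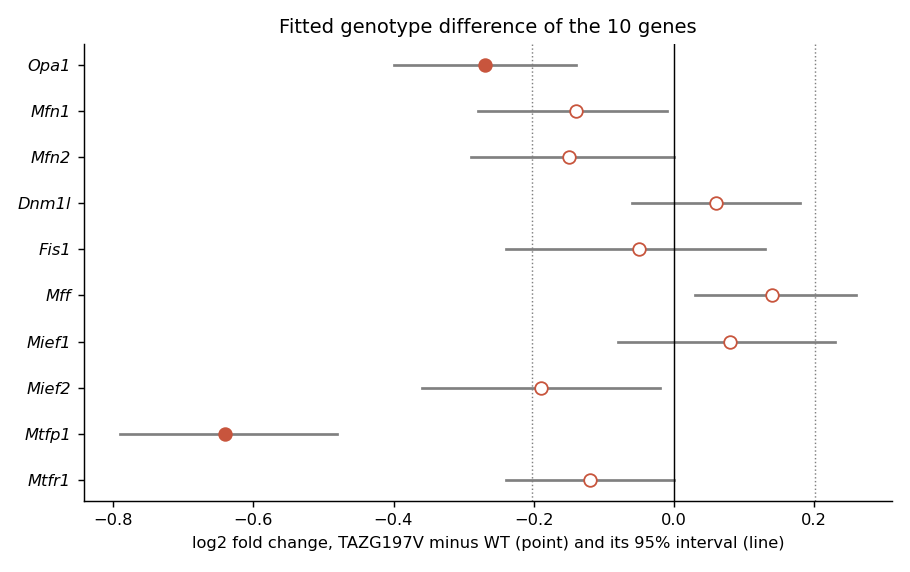
Fitted log2 fold change (points) and 95% interval (lines) of the 10 genes, TAZG197V minus WT, filled where called, with dotted lines at a log2 fold change of 0.20 either way. Mtfp1 at -0.64 and Opa1 at -0.27 are filled, and the intervals of Dnm1l, Fis1, Mief1 and Mtfr1 include 0, that of Mtfr1 at its upper end.

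The libraries ran on sequencing lanes 7 and 8 with both genotypes on each, 2 libraries a genotype and lane. Mtfp1 was lower in the mutants by a log2 difference of -0.63 on lane 7 and -0.61 on lane 8, without overlap on either. Opa1 gave -0.25 and -0.27, also without overlap. Mfn2, Dnm1l, Mff and Mtfr1, none of them called, did not overlap on either lane either, Dnm1l with a difference of only 0.01 on lane 8. With 2 libraries against 2 such separation says little, and its share over all genes was not counted. The sign was the same on both lanes for all members except Fis1, at 0.05 and -0.14. Mfn1 was at -0.03 on lane 7 and -0.21 on lane 8.

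Markers of heart cell types were measured beside these changes. The summed CPM of 6 cardiomyocyte genes (Myh6, Tnnt2, Actc1, Tnni3, Ryr2 and Pln) was 48649 to 53520 in WT and 39364 to 43940 in TAZG197V hearts, a mean difference of -16.7%, with 4 of the 6 called lower. Log2 fold changes of these 6 ran from -0.66 for Pln to -0.05 for Actc1, none of them at 0 in any library. Fibroblast genes summed to 879.1 to 1463 CPM in WT and 604.9 to 835.9 CPM in the mutants, with 3 of 5 called lower. Endothelial genes summed to 604.0 to 860.2 and 482.3 to 641.6 CPM, with 2 of 5 called lower, and macrophage genes to 114.4 to 131.3 and 107.1 to 163.5 CPM, with 0 of 4 called. Red cell genes were called lower in 6 of 6, at 346.2 to 55072 CPM in WT and 227.3 to 571.1 CPM in the mutants. Atrial genes ran from 2.77 to 918.7 CPM in WT and from 2.74 to 5.54 CPM in the mutants, with both tested genes called lower. Skeletal muscle genes (Acta1, Myh1, Myh2, Myh4 and Ckm) summed to 1301 to 2121 and 2026 to 2708 CPM. Only 2 of these 5 passed the count filter, with 1 called higher. The lowest of the 5 reached at most 0.0367 CPM in any library, and the sum was not split by gene. Adipocyte genes summed to at most 21 CPM in any library, with the 1 tested gene called lower. Without WT 2, the library highest in atrial, adipocyte and fibroblast genes, the log2 fold change was -0.30 for Opa1 (adjusted p = 0.00837) and -0.68 for Mtfp1 (adjusted p = 0.000344).

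Set against the cardiomyocyte markers, Opa1 and Mtfp1 differed. Per 1000 counts of the 6 summed marker genes, Opa1 was 5.53 to 5.85 in WT and 5.59 to 5.94 in TAZG197V libraries, which overlapped (means 0.384% apart). Mtfp1 was 2.14 to 2.40 in WT and 1.68 to 1.92 in TAZG197V libraries, still without overlap, with a difference of -21.7% in the means. On this scale Dnm1l, Mff, Mief1 and Mtfr1 stood higher in every mutant library than in any WT library, by 26.1%, 33.1%, 28.8% and 11.2%. The lower marker sum raises every gene on this scale, and in CPM Dnm1l differed by 4.9% and Mtfr1 by -7.48%. The share of all genes that separate in this way was not counted. Myh6 alone supplied about 25314 of the 50593 marker CPM in WT hearts, so the scale leans on a gene that is itself regulated in heart disease. It was chosen after the values were seen and is a description without a test. The part that cell composition or cardiomyocyte RNA content has in the results for Opa1 and Mtfp1 was not tested.

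Genes that act on OPA1 formed the first of 4 lists of other mitochondrial dynamics genes, and in it 4 of 10 were called higher and 2 lower (median log2 fold change 0.14), beside 18.5% and 15.1% of all genes. These lists are small, and no test was made of their shares. Oma1, the stress-activated protease that cleaves OPA1, was lower at 28.3 ± 0.454 CPM against 33.6 ± 2.49 CPM in WT (log2 fold change -0.24, edgeR adjusted p = 0.0162). That call was lost in turn without WT 3, TAZG197V 1 or TAZG197V 2, with adjusted p up to 0.0593. Yme1l1, the protease that cleaves OPA1 constitutively, was at 96.5 ± 0.476 and 102.0 ± 3.88 CPM and was not called (0.08, adjusted p = 0.246).

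The matrix-facing protease subunits moved in opposite directions. Afg3l2 rose by a log2 fold change of 0.48, with means of 192.6 ± 24.4 and 275.9 ± 36.0 CPM (adjusted p = 0.000533, edgeR), while Spg7, its partner paraplegin, fell from 113.5 ± 5.72 to 96.1 ± 5.18 CPM (-0.24, adjusted p = 0.0141). The prohibitins, ring-forming scaffolds around these proteases, were both called higher, Phb2 at 0.27 (adjusted p = 0.00838) and Phb at 0.21 (adjusted p = 0.0253). Chchd3, which encodes the cristae protein MIC19, rose from 363.9 ± 40.4 to 451.3 ± 17.3 CPM (0.30, adjusted p = 0.0147). Among these calls, Spg7 was lost without WT 1 or TAZG197V 1, Chchd3 without TAZG197V 1, and Phb in 7 of the 8 fits that left out 1 library and under DESeq2 (adjusted p = 0.053) or its size factors (adjusted p = 0.0385, lost by its fold).

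Outer-membrane and fusion regulators gave 2 genes called higher and 2 lower of 11 (median 0.05), beside the same 18.5% and 15.1% of all genes. Marchf5, an outer-membrane ubiquitin ligase that acts on mitofusins and DRP1 adaptors, rose from 53.3 ± 3.54 to 74.5 ± 4.25 CPM (0.46, edgeR adjusted p = 0.000417). Miga1 and Miga2, paralogous mitoguardins that promote fusion, went opposite ways, at 0.31 (adjusted p = 0.011) and -0.45 (adjusted p = 0.000624). The Miga2 value was weaker without number 4 libraries, in fits that also held 1 surrogate variable in place of 2. With 1 surrogate variable and all libraries the Miga2 value was -0.39 (adjusted p = 0.0457). It was -0.30 without WT 4 (adjusted p = 0.0545) and -0.25 without TAZG197V 4 (adjusted p = 0.134), where the call was lost. Without both it was -0.22 (adjusted p = 0.0176) and still called. The call was also lost with no surrogate variables (adjusted p = 0.0545), with lane (0.0663) or with the replicate block (0.0834) in their place. Pink1, the kinase that marks damaged mitochondria for removal, fell from 685.7 ± 22.5 to 538.5 ± 57.5 CPM (-0.35, adjusted p = 0.00651).

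Fission regulators were called higher in 3 and lower in 3 of 12 tested (median -0.03), again beside 18.5% and 15.1%. Dynamins other than DRP1 were read first. Dnm2, the ubiquitous endocytic dynamin, rose from 74.9 ± 4.53 to 104.1 ± 5.46 CPM without overlap (0.45, edgeR adjusted p = 0.000389). Dnm1, the neuronal dynamin, stood at 15.8 CPM in WT 4 and 25 CPM in TAZG197V 4, the libraries high in brain genes, and at most 13.5 CPM in the others. It was not called (-0.27, adjusted p = 0.102) but was called lower without both of them (-0.68, adjusted p = 0.00276). Dnm3 was not called (-0.11, adjusted p = 0.534).

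Spire1 and Inf2, actin nucleators that act at contacts between the endoplasmic reticulum and mitochondria, moved oppositely, at 0.65 (edgeR adjusted p = 0.00151) and -0.54 (adjusted p = 0.00284). Pgam5, a mitochondrial phosphatase known to act on DRP1, rose from 34.0 ± 1.19 to 48.6 ± 3.35 CPM (0.51, adjusted p = 0.000436). Akap1, which anchors protein kinase A at the outer membrane where it phosphorylates DRP1, was lower at -0.37 (adjusted p = 0.00259), a call lost without TAZG197V 4 (adjusted p = 0.0589). Sh3glb1, which encodes the membrane-curving protein endophilin B1, was lower at -0.28 (adjusted p = 0.0128) and was lost without WT 4 (-0.15, adjusted p = 0.0658) or without TAZG197V 4 (-0.17, adjusted p = 0.0511). It was lost too with no surrogate variables, with lane or with the replicate block in their place, at adjusted p of 0.0742, 0.0746 and 0.0652, without both number 4 libraries (-0.15, adjusted p = 0.0627), and by its fold with no low-count filter (-0.19, adjusted p = 0.0413). Of the paralogues of Mtfr1, Mtfr1l was at 165.2 ± 10.7 and 171.0 ± 8.5 CPM (0.05, adjusted p = 0.549), and Mtfr2 had too few counts to be tested (2 to 17 per library).

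Transport genes gave 1 called higher and 2 lower of 6 tested (18.5% and 15.1% of all genes). Kif5b, the kinesin that carries mitochondria along microtubules, rose from 161.2 ± 13.8 to 215.6 ± 8.70 CPM (0.44, edgeR adjusted p = 0.000885). Rhot1 and Rhot2, the Miro GTPases that link mitochondria to such motors, were both lower, at -0.23 (adjusted p = 0.00998) and -0.45 (adjusted p = 0.003). Over the 4 lists, 10 of 39 tested genes were called higher and 9 lower, with a median of 0.08, where all genes gave 18.5% higher, 15.1% lower and 33.5% either way. Without both number 4 libraries the counts were again 10 higher and 9 lower, of 40 tested, with Sh3glb1 lost and Dnm1 gained.

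**Figure D4:**
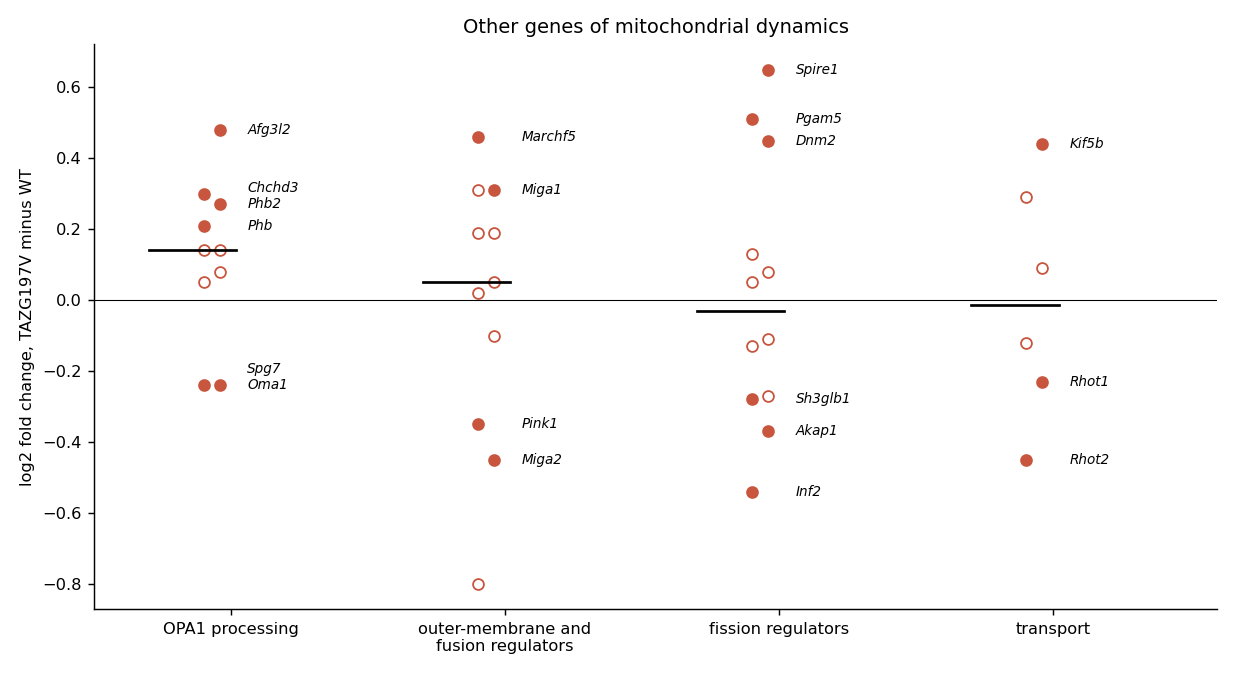
Log2 fold change, TAZG197V minus WT, of the 39 tested genes in 4 lists of other mitochondrial dynamics genes (points, filled and named where called, bars at each list's median). Called genes lie on both sides of 0 in every list, from Spire1 at 0.65 to Inf2 at -0.54, and the open point at -0.80 is Pld6, with under 1 CPM in every library and a value of -0.45 without both number 4 libraries.

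The sequence before the start sites was searched for 5 motifs of factors known to act on nuclear genes for mitochondrial proteins. RefSeq gave 14 windows of 250 bases for 9 members, Mtfr1 having no entry, among 32851 windows of all genes. The motifs were that of nuclear respiratory factor 1, whose letters are those in capitals in the Opa1 sequence, TCAAGGTCA of the estrogen-related receptors, the hexamer AGGTCA that lies inside it and is common to many nuclear receptors, the E-box CACGTG and the composite TGATGNAA bound by ATF4. Both strands were read. The list of motifs was drawn up with the values known.

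Opa1 held the nuclear respiratory factor 1 motif at -59 to -50, counted from the start site, a motif present in 0.782% of all windows and in no other member window. Mtfp1 held AGGTCA on the opposite strand at -135 to -130, seen in the printed sequence as TGACCT. That hexamer occurred in 14% of all windows and in no other member window. Mief2 held CACGTG at -24 to -19, as did 6.02% of all windows. Neither TCAAGGTCA (0.387% of all windows) nor TGATGNAA (3.45%) was in a member window. GC content was 45.6% in the Mtfp1 window and 52% in that of Opa1, beside a median of 52.4%. The 2 members that changed thus shared none of these motifs. A match describes letters only, and no binding was measured.

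**Figure D5:**
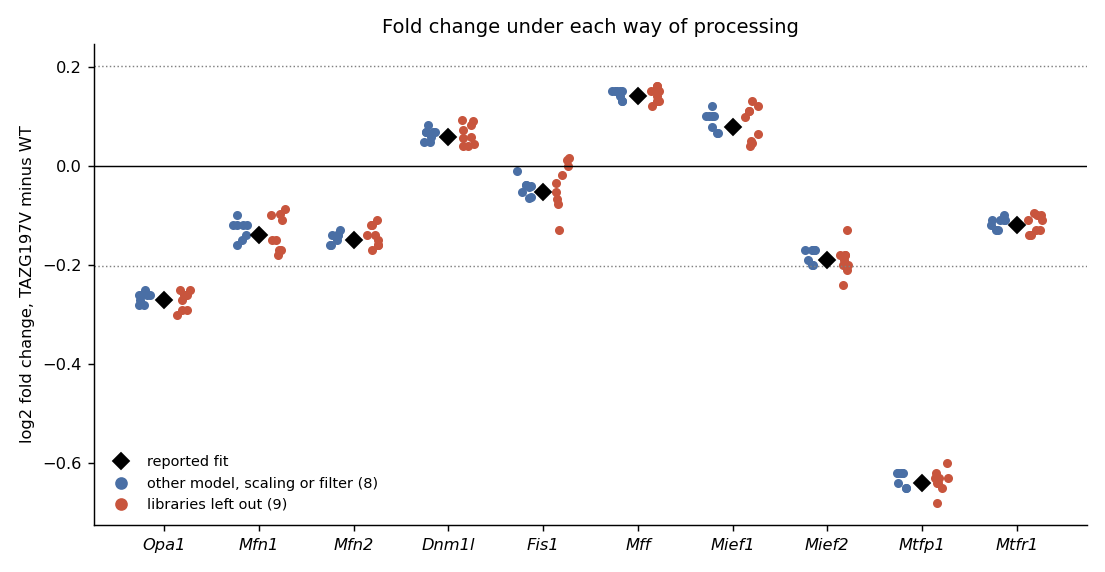
Log2 fold change of the 10 genes, TAZG197V minus WT, under the reported fit (black diamonds), 8 other models, scalings or filters (blue) and 9 fits with libraries left out (red), with dotted lines at 0.20 either way. Mtfp1 ran from -0.68 to -0.60 and Opa1 from -0.30 to -0.25, both called in all 17 alternatives, and Fis1 is the only gene with points on both sides of 0.

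Across 17 other fits, Mtfp1 and Opa1 were called in every one, with adjusted p up to 0.00214 and 0.0265. Mief2 was called in 1, and the other 7 members in none. Every member other than Fis1 kept the sign of its fitted change in all 17.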

How the data were processed

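RNA of 8 heart samples, 4 WT and 4 TAZG197V, was sequenced by the authors as 50 base single-end reads. Per the study's methods and the submitters' processing notes, reads were demultiplexed with bcl2fastq 2.20.0, checked with FastQC 0.11.9, aligned with STAR 2.7.3a to mm10 and counted per gene over exons with featureCounts of Subread 2.0.0. The deposited values are raw read counts per Ensembl gene, 1 table a library, with no normalization. The handling of strand and of reads shared by several genes is not given in the sources used here. Each table held 55471 genes and 92 spike-in rows, which were 0 in all libraries and were left out. GENCODE M21 gave a symbol to 55144 identifiers. At most 4.9% of 50-base windows in a member's exons occurred elsewhere in the annotated exons.

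Groups came from the labelled genotype. Totals were 23055689 to 36301031 counts. Genes were filtered by filterByExpr, scaled by TMM and tested with edgeR 4.0.16 (quasi-likelihood, two-sided) in R 4.3.3, with 2 surrogate variables from svaseq (sva 3.50.0) beside genotype, after the study's own use of svaseq, and p-values were adjusted by Benjamini-Hochberg over 15084 genes. In all, 5060 genes were called, 2785 higher and 2275 lower. CPM values are TMM-scaled and are not corrected for the surrogate variables, and fold changes come from the fit. Ratios were tested by exact permutation over 70 arrangements. The fit was tested on simulated counts with known changes.

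Alternatives were DESeq2 1.42.0, DESeq2 size factors, 0 or 1 surrogate variable, lane or replicate number as covariate, no low-count filter, a fold of 1.5, removal of mitochondrial-genome genes, each library left out, and, added after seeing the data, both number 4 libraries left out. Each left-out fit estimated its own number of surrogate variables. It was 1 without WT 2, WT 4, TAZG197V 4 or both number 4 libraries, and 2 in the others. The members, gene lists and motifs were chosen with earlier results of these data known. Named genes are all 10 members, Taz, up to 4 called genes per list and direction with the largest fold, and 7 relatives or proteases (Oma1, Yme1l1, Mtfr1l, Mtfr2, Dnm1, Dnm2 and Dnm3) whatever their values; Pld6, Gdap1 and Snph were named after their values were seen. No pair of libraries within a genotype agreed within sampling noise.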

Additional observations from a re-analysis of the deposited data

Results flagged for a closer look

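In 3 of the 26 groups of 4 libraries examined, 1 library lay far from the other 3, its gap to the nearest taking more of the whole range than the 95% limit of Dixon's test for 4 values, and chance alone gives about 1.3 such groups. Dnm1l was low in WT 2 (148.4 CPM, beside 156.8 to 158.1 CPM in the other WT libraries), with a gap of 0.867 of the range. Fis1 was high in TAZG197V 2 (79.6 CPM, beside 64.5 to 66.3 CPM), with a gap of 0.882. The ratio of Mfn1 to Mfn2 was low in TAZG197V 4 (0.399, beside 0.42 to 0.424), with a gap of 0.846 on the log2 scale.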

How the results depend on the processing

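The calls of Mtfp1 and Opa1 held under all 17 alternatives that kept the fold of the call rule. At a fold of 1.5 the number of genes called was 1843 and of members 1 (Mtfp1). Leaving out 1 library at a time gave 3675 to 4816 genes and 2 to 3 members called. The log2 difference of the Mief1 to Mief2 ratio then ran from 0.23 to 0.32, and that of Fis1 to Mff from -0.25 to -0.16. Both reached an unadjusted exact permutation p of 0.0286 without TAZG197V 2 (0.32 and -0.25). TAZG197V 2 was the only mutant to overlap WT in these ratios, and that p is the smallest possible once it is removed. The Mfn1 to Mfn2 difference ran from -0.01 (without WT 2) to 0.08. Fis1 ran from -0.13 to 0.011 with 1 library left out, turning to 0.011 without TAZG197V 4 and 0.016 without both number 4 libraries, and Dnm3 to 0.006 without surrogate variables. In these 3 the cause was not tested.

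The replicate number as a block gave 4272 genes and the same 2 members called, and exact permutation by sign flips of same-numbered pairs gave p = 0.625, 0.125 and 0.25 for the 3 ratios. With 4 pairs the smallest p that sign flips allow is 0.125, so no ratio could have passed. Deviations of same-numbered libraries correlated at 0.277, 0.0436, 0.28 and 0.416 for numbers 1 to 4 and at -0.464 to 0.317 for different numbers. Number 2 was under the 0.1 asked of every pair, WT 3 correlated better with TAZG197V 1 and 2 (0.3 and 0.317) than with its own number, and the labels name no shared animal or day, so the pairing was not adopted. Under the block Miga2 and Sh3glb1 were not called. Of the list genes named with a fold change, Pld6 was compared only without both number 4 libraries, and of the others only Dnm3 turned sign. Mief1 and Mief2 had the lowest mean scaled counts among the members (742.5 and 983.1), and Mtfr2 was below the filter.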

Other observations

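Gdap1, a fission-linked outer-membrane protein of neurons, and Snph, a neuronal anchor of axonal mitochondria, were below the count filter and were highest in both number 4 libraries. Gdap1 was at 3.08 CPM in WT 4 and 6.56 CPM in TAZG197V 4, and at most 0.254 CPM in the other 6. Snph was at 3.39 and 7.96 CPM, and at most 0.291 CPM elsewhere. Dnm3 was also highest there, at 7.59 and 10 CPM beside at most 5.75 CPM. These are the libraries that were high in the 6 brain genes.

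Limits of these data are few libraries, a mixed substrain background, bulk tissue and mRNA alone. Protein levels, OPA1 cleavage, DRP1 phosphorylation and mitochondrial shape were not measured in the values used here. The reported fit holds 2 surrogate variables and no term for lane, which entered as an alternative, and animal identity is not given in the labels.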
